A study of Mus musculus with 2 samples.

Results

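The miR-30 family in J1 mouse embryonic stem cells (mESCs) comprised the 6 hairpin genes Mir30a, Mir30b, Mir30c-1, Mir30c-2, Mir30d and Mir30e, out of the 1174 miRNA hairpins that GENCODE M21 names. Its reads were the deposited small RNA tags that matched one of these hairpins perfectly over their whole length, on either arm. J1 is an established mESC line, which was grown without feeder cells on gelatin in serum replacement medium with 1000 U/mL LIF, a cytokine of self-renewal. The cells of the PD group received 1 μM PD0325901 (PD), an inhibitor of the kinase MEK that blocks ERK signaling, and those of the control group received DMSO, both for 24 h and both with LIF. RNA from 3 independent experiments was pooled before sequencing, so that each treatment had 1 library, and every difference given here is a difference between 2 libraries without replicates. There were 18870345 clean reads in the control and 20944808 with PD. All intervals are 95% intervals of counting error, in which variation from culture to culture or library to library has no part.

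A miRNA is cut from a hairpin precursor as a duplex, and one strand of it (the 5p or the 3p arm) is usually retained in an Argonaute protein while the other is degraded. Bases 2 to 8 of the retained strand, the seed, choose the target mRNAs, so that miRNAs with one seed form a family. The miR-30 family is known to be expressed widely in differentiated tissues and has been linked to epithelial-mesenchymal transition and autophagy. The mature sequences of 4 of the 6 hairpins were matched in the RefSeq table (build GRCm38.p6) and are printed to show the shared and the differing parts, with the seed in capitals.
miR-30a-5p: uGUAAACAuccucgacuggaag
miR-30e-5p: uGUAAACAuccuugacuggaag
miR-30c-5p: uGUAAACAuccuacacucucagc
miR-30a-3p: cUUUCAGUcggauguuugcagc
miR-30e-3p: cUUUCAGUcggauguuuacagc
miR-30c-1-3p: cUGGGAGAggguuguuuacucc
miR-30c-2-3p: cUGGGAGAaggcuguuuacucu
The 5p miRNAs share the seed GUAAACA, which bases 2 to 8 of the most frequent 5p tags of Mir30b and Mir30d also held. The 3p miRNAs fall into different seeds, UUUCAGU for miR-30a-3p and miR-30e-3p and UGGGAGA for miR-30c-1-3p and miR-30c-2-3p. Counted from the 5′ end, miR-30a-5p and miR-30e-5p differ by the single substitution C13U, and their 3p partners by G18A. miR-30c-5p is identical from Mir30c-1 and Mir30c-2. No other miRNA with reads had the seed GUAAACA, and neither Mir30f, which is annotated opposite to Mir30e, nor Mir384 had any read in either library (0 of 18870345 and 0 of 20944808 reads, which allows up to 0.159 and 0.143 RPM). RPM are reads scaled to a library of 1000000 clean reads.

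The hairpins lie in pairs in the GRCm38 genome. The hairpin Mir30a (chr1:23272269-23272339, plus strand) lies 19361 nt from Mir30c-2 (chr1:23291701-23291784, plus strand), which overlaps an exon of the noncoding gene Gm27028. On chromosome 4, Mir30c-1 (chr4:120769534-120769622, minus strand) and Mir30e (chr4:120772606-120772697, minus strand) are 2983 nt apart in introns of Nfyc, which encodes a subunit of the transcription factor NF-Y. On chromosome 15, Mir30b (chr15:68337415-68337510, minus strand) and Mir30d (chr15:68341208-68341289, minus strand) are 3697 nt apart and overlap exons of noncoding transcripts (Gm26621 for Mir30b, Gm20732 and Gm37296 for Mir30d). The RefSeq hairpins of Mir30a, Mir30c-2, Mir30c-1 and Mir30e are shown with both mature miRNAs in capitals, since the arms are compared further on.
Mir30a: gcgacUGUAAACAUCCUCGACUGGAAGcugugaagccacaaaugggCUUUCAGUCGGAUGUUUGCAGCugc
Mir30c-2: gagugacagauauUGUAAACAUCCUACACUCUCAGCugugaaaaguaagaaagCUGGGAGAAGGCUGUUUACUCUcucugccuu
Mir30c-1: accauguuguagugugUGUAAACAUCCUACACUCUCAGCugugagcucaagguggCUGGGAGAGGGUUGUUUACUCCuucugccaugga
Mir30e: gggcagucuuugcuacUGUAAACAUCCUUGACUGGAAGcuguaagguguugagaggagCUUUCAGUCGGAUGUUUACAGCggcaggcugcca

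In total 145 distinct tags matched the 6 hairpins, with 14004 control reads and 14001 PD reads. They made up 0.642% of all reads that matched miRNA hairpins in the control (95% Wilson interval 0.632 to 0.653) and 0.663% in the PD library (0.652 to 0.674). Most of these tags named 1 hairpin. The 8 tags common to Mir30c-1 and Mir30c-2 alone had 584 control reads and 491 PD reads. They hold all but 2 of the reads of miR-30c-5p, for which the hairpins of origin cannot be told apart. A further tag fits Mir30b, Mir30c-1 and Mir30c-2 (2 control reads, 0 PD reads), and 1 tag fits Mir30a and Mir30e (0 and 1 read).

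The cells carried the miRNAs of mESCs. The listed hairpins of the miR-290 and miR-302 clusters, which mark mESCs, summed to 31117 RPM for DMSO and 26394 RPM for PD. All 9 hairpins found under their listed symbol were above 0. The listed symbol Mir292a was not found, and the hairpin annotated as Mir292 is not in the sum. Its miR-292-3p had 1359 and 1326 RPM and its miR-292-5p 596 and 656 RPM. Most of the sum came from the miR-290 cluster, where miR-293-3p alone had 11549 and 9620 RPM. The miR-302 miRNAs were low, with miR-302a-5p highest at 9.06 and 15.9 RPM and miR-302c-3p at 0.159 and 0.191 RPM. Of those with reads, only miR-302b-5p (4 and 1 reads) was lower with PD. The lists of other cell types summed to less than the mESC list. Fibroblast or feeder hairpins had 209 and 179 RPM (5 of 5 hairpins above 0) and muscle hairpins 160.3 and 167 RPM (2 of 2). Blood hairpins had 16.1 and 14.9 RPM (1 of 2, Mir223 at 0) and the liver hairpin 2.91 and 2.01 RPM (1 of 1). The neural list of Mir124a and Mir9 hairpins (6 of 6) was 1.77 times higher in the PD library, with 278 RPM in the control and 493 RPM with PD, and its part in the values of the miR-30 family was not tested. In bulk RNA, fewer cells of a type and less RNA per cell cannot be told apart.

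Levels were compared as RPM, since each read stands for 1 small RNA regardless of the length of its gene. Reads were counted for a mature miRNA when they overlapped the most frequent tag of its arm by at least 16 nt, which gave 11 distinct mature miRNAs in the family. Of these, 10 had 1 RPM or more in a library and are called detected, as are 499 of all 1139 miRNAs with reads. The exception was miR-30d-3p, the partner strand of the most abundant member, with 0 control reads (which allows up to 0.159 RPM) and 4 PD reads (0.191 RPM). The level of the others spanned almost 2 orders of magnitude.

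Of the 5p miRNAs, miR-30d-5p had the highest level, with 6231 reads (330.2 RPM) in the control and 6654 reads (318 RPM) in the PD library, which placed it 50th and 51st among the 499 detected miRNAs. The next was miR-30a-5p, with 4225 reads (224 RPM) in the control and 3910 reads (187 RPM) with PD. The third, miR-30e-5p, had 1338 reads (70.9 RPM) and 1454 reads (69.4 RPM). These 3 miRNAs did not overlap in level in either library. miR-30c-5p followed with 586 reads (31.1 RPM) in the control and 491 reads (23.4 RPM) in the PD library. The least abundant 5p miRNA was miR-30b-5p, with 75 reads (3.97 RPM) and 77 reads (3.68 RPM).

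Among the 3p miRNAs, miR-30c-2-3p led with 562 reads (29.8 RPM) in the control and 528 reads (25.2 RPM) in the PD library, a level close to that of miR-30c-5p. The intervals of the 2 overlapped in both libraries, and their order differed between the libraries. miR-30a-3p had 487 and 414 reads (25.8 and 19.8 RPM), and miR-30e-3p had 222 and 213 reads (11.8 and 10.2 RPM). At the low end, miR-30b-3p had 140 and 139 reads (7.42 and 6.64 RPM) and miR-30c-1-3p had 127 and 92 reads (6.73 and 4.39 RPM), with overlapping intervals in the control and not in the PD library.

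**Figure D1:**
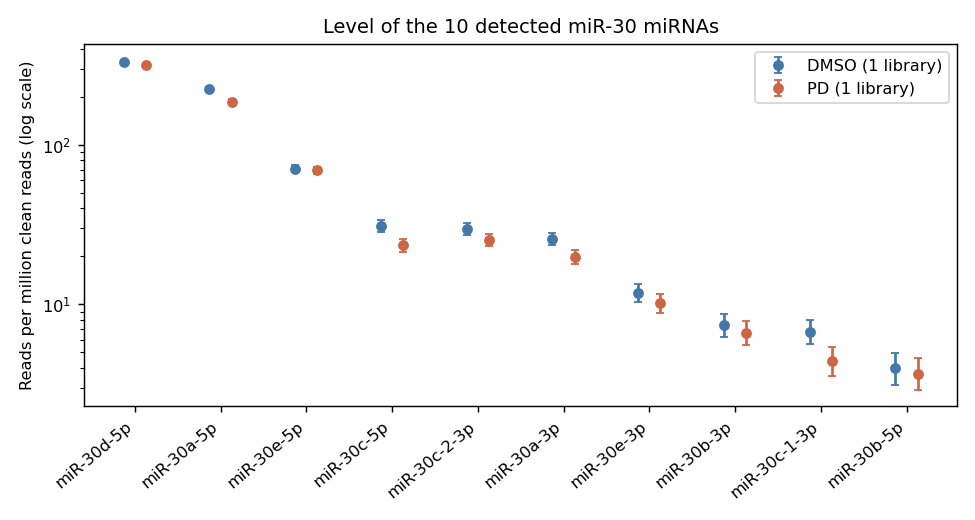
Level of the 10 detected miR-30 miRNAs in RPM on a log axis, for the control (DMSO) and the PD library, 1 library each, with exact 95% Poisson intervals of the reads as bars. Levels run from 330.2 RPM for miR-30d-5p to 3.97 RPM for miR-30b-5p in the control.

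The question of the design was which miRNAs differ in level after inhibition of MEK. By the study's criterion of a fold change of 1.5 or more, 1 of the 10 detected miR-30 miRNAs changed, miR-30c-1-3p, which was lower in the PD library. Across all 499 detected miRNAs, 19.8% passed this criterion, 13.8% in the lower and 6.01% in the higher direction. miR-30c-1-3p went from 127 to 92 reads, with a fold change of 0.653 (0.494 to 0.860), an interval with values on both sides of the threshold. The 2-sided exact binomial test of its reads, which compares these libraries and not the treatments, gave an adjusted p of 0.00526 over all detected miRNAs. Counting only its tags with the first base as 5′ end gave a fold change of 0.716, and the reads that match miRNA hairpins as denominator gave 0.748. The remaining 9 miRNAs stayed within 1.5-fold.

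All 10 detected members were below the control level in RPM, with a median log2 fold change of -0.23, while 67.5% of all detected miRNAs were below it, with a median of -0.17. This direction rests on the denominator. The share of clean reads of 20 to 24 nt, the size of miRNAs, was 63.03% for DMSO and 52.04% for PD, and that of reads that match miRNA hairpins 11.56% and 10.08%. Their part in the values was not tested. With reads that match miRNA hairpins as denominator, the median of all detected miRNAs moved to 0.03, 47.1% of them were below the control level and 6 of the 10 members were. With the clean reads of 20 to 24 nt, 38.3% of all and 3 of the 10 members were below it, and with the TMM factors of edgeR or the size factors of DESeq2 6 of the 10 were. The share of all detected miRNAs past 1.5-fold was 11.8% in the higher and 4.61% in the lower direction with the clean reads of 20 to 24 nt, 9.62% and 6.01% with the reads that match hairpins, and 8.62% and 6.81% with the TMM factors.

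The highest member differed little. For miR-30d-5p the fold change was 0.962 (0.929 to 0.996), and for miR-30e-5p it was 0.979 (0.908 to 1.06), an interval that includes 1. That of miR-30a-5p was 0.834 (0.798 to 0.871; adjusted p = 1.79e-15 in the exact binomial test), and its 3p partner lay at 0.766 (0.670 to 0.875). Both strands of Mir30a were thus below the median fold change of 0.888 of all detected miRNAs, and the intervals of both exclude it. The intervals of miR-30c-5p and miR-30c-1-3p also lie below this median. The value of miR-30a-5p depends on the tags counted. Its most frequent tag, of 24 nt, was at 0.932 (0.873 to 0.996) and its 23 nt tag at 0.752 (0.702 to 0.806). The fold change of miR-30c-5p was 0.755 (0.668 to 0.853) and that of miR-30c-2-3p was 0.846 (0.750 to 0.955). The intervals of miR-30e-3p (fold change 0.864), miR-30b-3p (0.895) and miR-30b-5p (0.925) include 1, so that a difference was not detectable at this depth. At a threshold of 0.05 on the adjusted p of this exact test, the reads of 5 of the 10 miRNAs differed between the libraries, as did those of 226 of the 499 detected miRNAs.

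**Figure D2:**
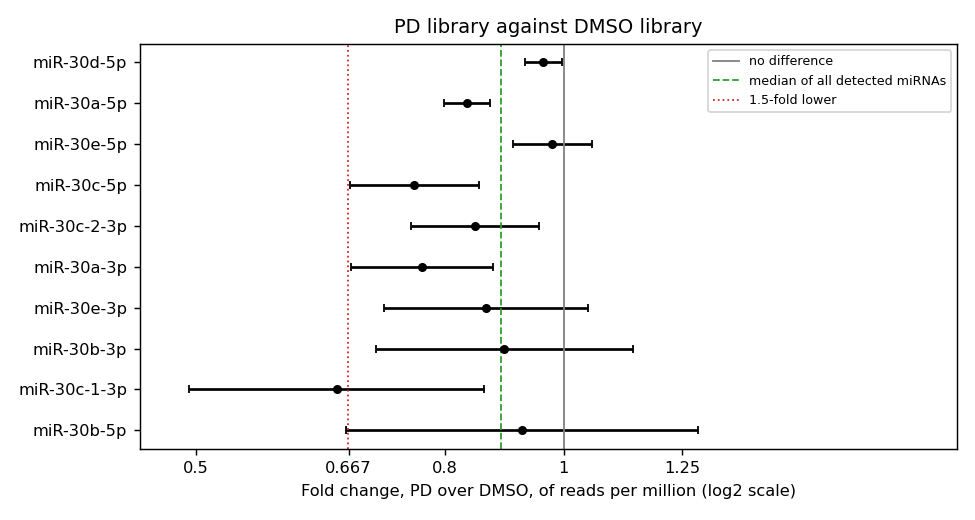
Fold change of RPM, PD library over control library, on a log2 axis for the 10 detected miR-30 miRNAs, with exact 95% Clopper-Pearson intervals of the reads. All points lie below 1, miR-30c-1-3p (0.653) lies past the 1.5-fold line, and the direction of miR-30d-5p, miR-30e-5p, miR-30b-5p and miR-30b-3p is reversed with the reads that match miRNA hairpins as denominator, as is with clean reads of 20 to 24 nt that of 3 further members.

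Summed with each tag counted once, the 5p reads of the family were 12453 (659.9 RPM) for DMSO and 12586 (601 RPM) for PD. Per clean read this was a fold change of 0.911 (0.888 to 0.933), which turned to 1.04 with the reads that match miRNA hairpins as denominator and to 1.10 with those of 20 to 24 nt. The 3p reads were 1538 (81.5 RPM) and 1389 (66.3 RPM), a fold change of 0.814 (0.756 to 0.875) per clean read. It was 0.933 with the reads that match miRNA hairpins as denominator and 0.985 with those of 20 to 24 nt. For orientation, families were also summed over every matching tag of both arms. Per clean read, the fold change of the miR-30 family was then 0.901 (0.880 to 0.922). The reads of all let-7 and miR-98 hairpins had 0.947 (0.941 to 0.953) and those of the miR-200 and miR-141 family 0.950 (0.900 to 1.00). The difference between these families and miR-30 was not tested. Outside the family, the miRNAs of at least 100 RPM whose log2 fold change was nearest to that of the miR-30 5p total (-0.14) were miR-34c-5p (-0.13), miR-101a-3p (-0.14) and miR-106b-3p (-0.15), out of 93 such miRNAs and over only the 2 libraries.

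The make-up of the family does not depend on the denominator. Of its 5p reads, miR-30d-5p held 50.0% in the control (49.2 to 50.9) and 52.9% in the PD library (52.0 to 53.7), and miR-30a-5p held 33.9% (33.1 to 34.8) and 31.1% (30.3 to 31.9). The share of miR-30d-5p was thus higher and that of miR-30a-5p lower with PD, and these intervals do not overlap. miR-30c-5p held 4.71% (4.35 to 5.09) and 3.90% (3.58 to 4.25), again without overlap. The shares of miR-30e-5p (10.7% and 11.6%) and miR-30b-5p (0.602% and 0.612%) had overlapping intervals.

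Ratios between members come from the same reads as the shares and restate the division seen there. The ratio of miR-30a-5p to miR-30d-5p was 0.678 in the control and 0.588 in the PD library, a change by a factor of 0.867 (exact 95% interval 0.819 to 0.916). With only the most frequent tag of each counted, their fold changes lay closer together, at 0.932 and 0.987, than with all tags (0.834 and 0.962). The ratio of miR-30e-5p to miR-30a-5p, miRNAs that differ by 1 base, went from 0.317 to 0.372, by a factor of 1.17 (1.08 to 1.28). For miR-30c-5p against miR-30d-5p the factor was 0.785 (0.691 to 0.891), and against miR-30e-5p it was 0.771 (0.668 to 0.890). These are the pairs out of 10 whose interval excludes 1, with no allowance for the number of pairs. The ratio of miR-30e-5p to miR-30d-5p, from different chromosomes, changed by a factor of 1.02 (0.937 to 1.11), and that of miR-30c-5p to miR-30a-5p by 0.905 (0.795 to 1.03).

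By locus, with every matching tag counted, the tags that fit only the chromosome 1 pair (Mir30a and Mir30c-2) went from 5274 to 4851 reads, a fold change of 0.829 (0.797 to 0.862). Those of the chromosome 4 pair (Mir30e and Mir30c-1) went from 1700 to 1784 reads, at 0.945 (0.884 to 1.01), including the few tags that overlap neither mature miRNA. For the chromosome 15 pair (Mir30d and Mir30b) the counts were 6444 and 6874, at 0.961 (0.929 to 0.994). The interval of the chromosome 1 pair lies below both others. The tags shared by Mir30c-1 and Mir30c-2 (584 control and 491 PD reads, fold change 0.757) are in neither pair, as their chromosome cannot be told. Added to the chromosome 4 pair they would lower its value, so the distance between the chromosome 1 and 4 pairs is not settled. The values of the 3 pairs scale with the denominator, which leaves their order unchanged. Within the chromosome 4 pair, whose hairpins both lie in introns of Nfyc, the interval of miR-30c-1-3p (0.494 to 0.860) overlapped that of miR-30e-3p (0.713 to 1.05) and lay below that of miR-30e-5p (0.908 to 1.06).

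Members of one pair also differed widely in level. Mir30d and Mir30b are 3697 nt apart, yet miR-30d-5p had 330.2 RPM in the control and miR-30b-5p 3.97 RPM. Base differences among the 5p miRNAs could let sequencing errors of an abundant member count for a rarer one, so the single-base variants of the most frequent tags were counted. Of the 68 variants of the 24 nt miR-30d-5p tag that match no hairpin and differ before the last base, the most frequent had 4 reads in the control and 5 with PD, against 4578 and 5015 reads of the tag itself. The variant that equals miR-30a-5p had 1769 and 1830 reads. For miR-30a-5p, the most frequent of 67 such variants had 6 and 2 reads, while the miR-30e-5p tag had 907 and 1086.

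The arms were used very differently by the 6 hairpins. Mir30d gave only 5p reads in the control (100% of 6231, 95% Wilson interval 99.9 to 100) and 99.9% in the PD library. Mir30a gave 89.7% 5p reads (88.8 to 90.5) and 90.4% (89.5 to 91.3), and Mir30e 85.8% (83.9 to 87.4) and 87.2% (85.5 to 88.7). At the other end, Mir30b had more reads of its 3p arm, with a 5p share of 34.9% (28.8 to 41.5) and 35.6% (29.6 to 42.2). The PD and control intervals overlapped for all 6 hairpins.

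Mir30c-1 and Mir30c-2 share their 5p reads, so their 5p shares are upper limits. Had all of these reads come from Mir30c-2, its 5p share would be 51.0% in the control and 48.2% in the PD library. For Mir30c-1 the corresponding shares are 82.2% and 84.2%. The 3p arms tell the hairpins apart, and there the 562 and 528 reads of miR-30c-2-3p stood against 127 and 92 of miR-30c-1-3p. Of all reads counted for the family, 89.0% (88.5 to 89.5) were 5p in the control and 90.1% (89.6 to 90.5) in the PD library.

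**Figure D3:**
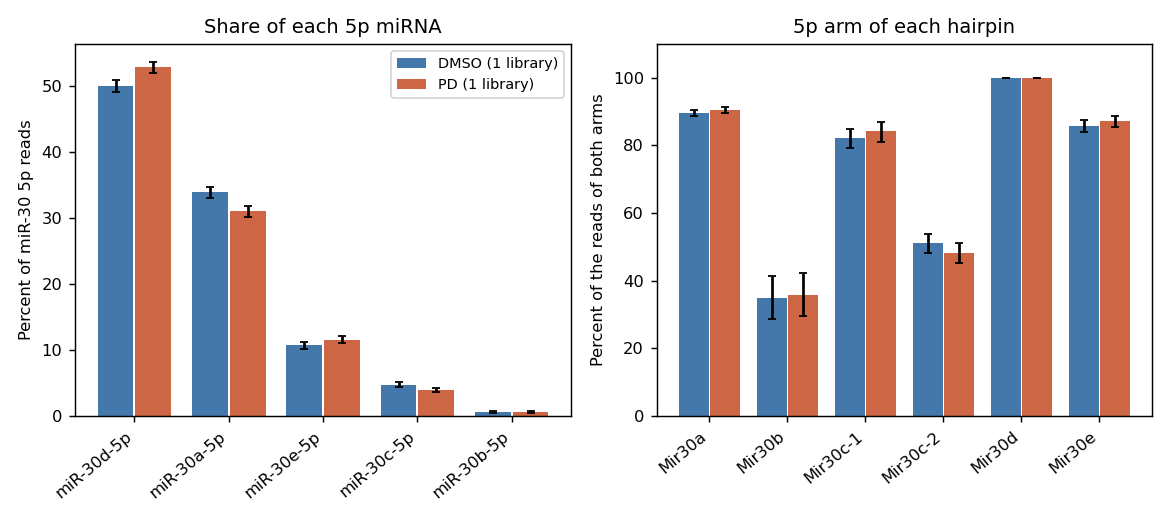
Left, percent of the miR-30 5p reads held by each 5p miRNA, and right, percent of the reads of each hairpin that came from its 5p arm (shared miR-30c-5p reads counted for both Mir30c hairpins), with 95% Wilson intervals, 1 library per treatment. miR-30d-5p held 50.0% and 52.9% of the 5p reads, and Mir30b was the hairpin with the lowest 5p share, 34.9% and 35.6%.

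The 5′ end sets the seed. For the 5p miRNAs, 99.0% of the reads began at the same base as the most frequent tag in the control (98.8 to 99.1) and 99.2% in the PD library (99.0 to 99.3). The share was highest for miR-30d-5p (99.8% in both libraries) among the miRNAs above 1000 reads, and lowest for miR-30e-5p (96.5% and 97.1%). For the 3p miRNAs only 76.5% of the reads began at that base in the control (74.3 to 78.5) and 79.3% in the PD library (77.1 to 81.3). Most of the rest came from miR-30a-3p, of which 38.2% (34.0 to 42.6) and 36.2% (31.7 to 41.0) began 1 nt later, where the seed is shifted by 1 base. The most frequent tags of both kinds are printed to show this shift.
miR-30a-3p tag of 195 control and 175 PD reads: ctttcagtcggatgtttgcagc
miR-30a-3p tag of 131 control and 125 PD reads: tttcagtcggatgtttgcagc
For miR-30e-3p, whose sequence differs from that of miR-30a-3p by 1 base near the 3′ end, 12.2% (8.49 to 17.1) and 14.6% (10.4 to 19.9) began at that later base.

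The 3′ ends varied far more. Most reads of miR-30d-5p, miR-30e-5p and miR-30c-5p were 24 nt long, those of miR-30a-5p were divided mainly between 23 and 24 nt, and 84.0% of the control and 92.2% of the PD reads of miR-30b-5p had 22 nt. Frequent tags are printed with capitals for the bases past the RefSeq end.
miR-30a-5p tag of 24 nt: tgtaaacatcctcgactggaagCT
miR-30a-5p tag of 23 nt: tgtaaacatcctcgactggaagC
miR-30e-5p tag of 24 nt: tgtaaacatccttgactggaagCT
miR-30c-5p tag of 24 nt: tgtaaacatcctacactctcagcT
The added bases are those of the hairpins. The 24 nt form held 73.5% of the miR-30d-5p reads in the control (72.4 to 74.6) and 75.4% in the PD library (74.3 to 76.4), 67.8% (65.2 to 70.2) and 74.7% (72.4 to 76.9) of miR-30e-5p, and 78.8% and 78.2% of miR-30c-5p. In miR-30a-5p the 23 nt form was as frequent in the control, with 1830 reads against 1769 of 24 nt, while in the PD library the counts were 1528 and 1830. The 24 nt share of miR-30a-5p was 41.9% (40.4 to 43.4) and 46.8% (45.2 to 48.4). It was thus higher with PD for miR-30a-5p and miR-30e-5p, without overlap of the intervals, and overlapped for miR-30d-5p and miR-30c-5p.

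A larger difference was seen at the 3′ end of miR-30c-2-3p. The 3 most frequent tags end 2 bases before, 1 base before and at the end of the RefSeq sequence.
miR-30c-2-3p tag of 20 nt: ctgggagaaggctgtttact
miR-30c-2-3p tag of 21 nt: ctgggagaaggctgtttactc
miR-30c-2-3p tag of 22 nt: ctgggagaaggctgtttactct
Reads of the 22 nt tag went from 114 to 220, a fold change of 1.74 (1.38 to 2.20), while those of the 21 nt tag went from 254 to 185, at 0.656 (0.540 to 0.796), and those of the 20 nt tag from 92 to 52, at 0.509 (0.355 to 0.723). Reads that end at the RefSeq end were 148 of 562 (26.3%) of miR-30c-2-3p in the control and 260 of 528 (49.2%) in the PD library, whatever their start, and the intervals of these shares did not overlap. The mean tag length was 20.97 nt in the control and 21.33 nt in the PD library, a difference of 0.360 nt. Longer tags with PD were common, since 83.2% of the 297 miRNAs with at least 100 reads in both libraries had a higher mean length there, with a median difference of 0.0747 nt, and 31 of them had a larger one than miR-30c-2-3p. Of the 8 members among them 7 were longer, miR-30e-3p being the exception (-0.0173 nt).

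**Figure D4:**
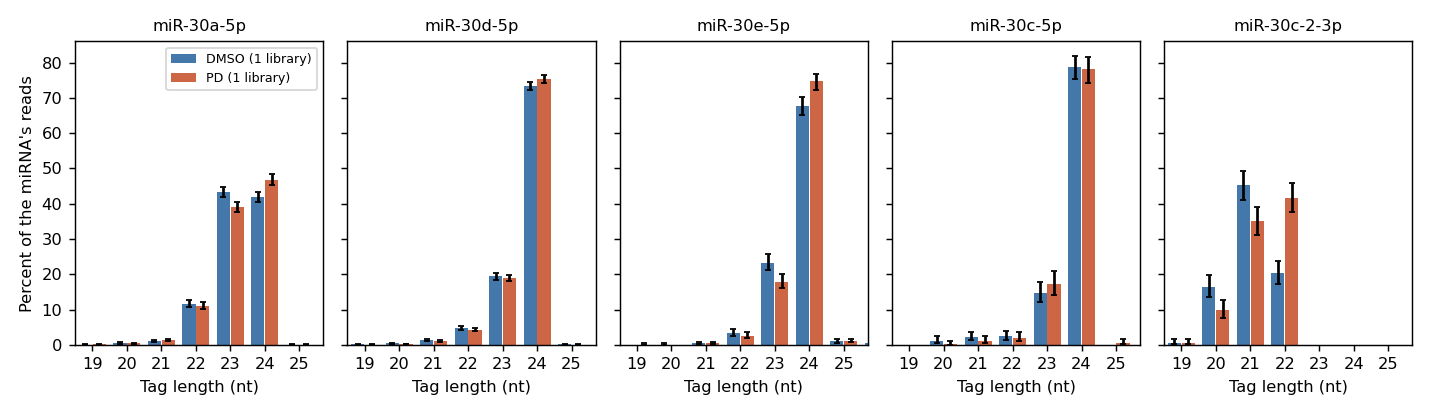
Percent of the reads of each miRNA that start at its first base and have the given tag length in nt, in the control (DMSO) and the PD library, with 95% Wilson intervals, 1 library per treatment. The 24 nt form led in miR-30d-5p, miR-30e-5p and miR-30c-5p, and in miR-30c-2-3p the 22 nt form held 20.3% in the control and 41.7% with PD.

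Terminal nucleotidyltransferases can add uridines or adenosines to the 3′ end of a miRNA. Such tags do not match a hairpin and are not in the counts above. They were sought as tags that begin at the first base of the mature miRNA, follow the hairpin for at least 18 nt and end in 1 to 3 further bases, with no genome search for other origins. Shares are of these tailed reads plus the reads that match the hairpin from the same first base. In the family, tails of uridine alone made up 3.96% of this sum in the control (3.66 to 4.28) and 4.28% in the PD library (3.97 to 4.61), close to the 3.82% and 4.09% of all other detected miRNAs. Tails of adenosine alone made up 3.80% and 4.26%, against 4.07% and 4.31% in the others.

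The members differed among themselves. Of the tailed and untailed reads so summed, uridine tails made up 34.4% for miR-30e-3p in the control (29.6 to 39.6) and 30.3% in the PD library (25.4 to 35.8). For miR-30a-3p they made up 26.4% (22.4 to 30.8) and 26.5% (22.3 to 31.2). The 5p strands of the same hairpins had 6.84% and 7.22% (miR-30e-5p) and 0.872% and 1.10% (miR-30a-5p). Tails of adenosine were frequent in miR-30c-5p, with 107 such reads in the control (interval of the share 11.6 to 16.5%) and 121 in the PD library (15.3 to 21.1%), and in miR-30e-3p, with 14.0% and 12.5%. In miR-30b-5p, which had few reads, they made up 11.4% (6.29 to 19.7) and 5.75% (2.48 to 12.8). The leading tailed tags are printed with the added base in capitals.
miR-30a-3p, 95 control and 96 PD reads: ctttcagtcggatgtttgcagT
miR-30e-3p, 101 control and 77 PD reads: ctttcagtcggatgtttacagT
miR-30e-5p, 91 control and 100 PD reads: tgtaaacatccttgactggaagctT
miR-30c-5p, 43 control and 40 PD reads: tgtaaacatcctacactctcagctA
In both 3p miRNAs the uridine stands where the RefSeq sequence has its final cytidine. For miR-30d-5p the share of uridine tails was 2.60% (2.25 to 3.01) in the control and 3.51% (3.12 to 3.96) with PD, the only one among the members whose intervals did not overlap, and the adenosine intervals overlapped for all 10.

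**Figure D5:**
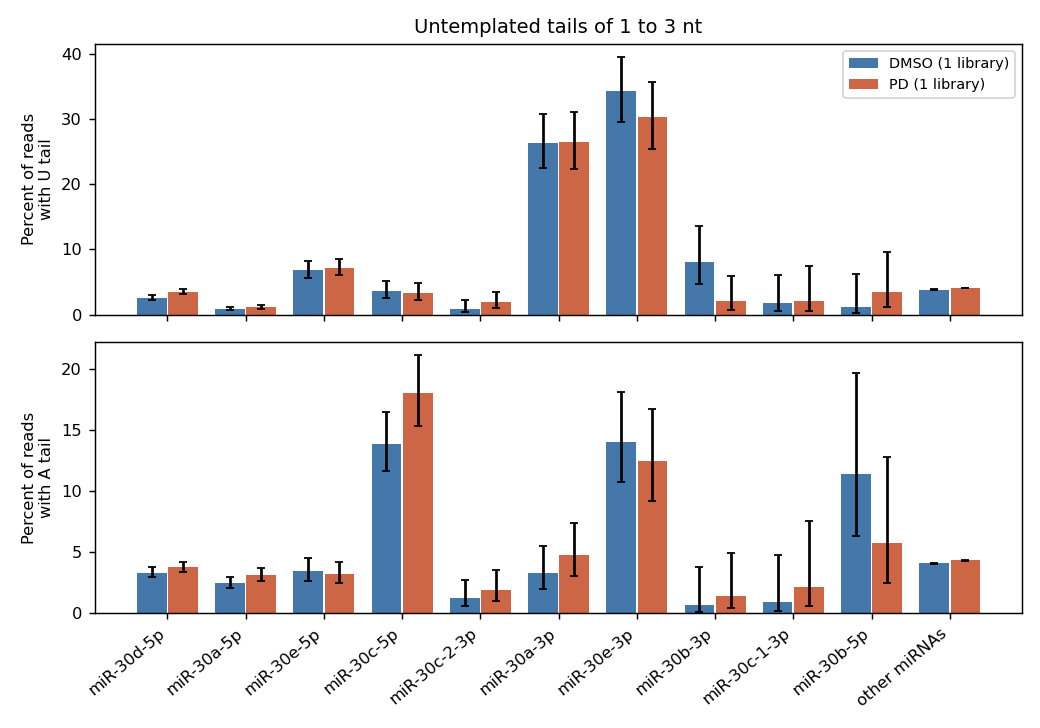
Percent of reads with a tail of uridine (top) or adenosine (bottom) of 1 to 3 nt that the hairpin does not encode, for the 10 detected miR-30 miRNAs and the sum of all other detected miRNAs, with 95% Wilson intervals, 1 library per treatment. The percent is of tailed reads plus untailed reads with the same first base. Uridine tails stood at 34.4% and 30.3% in miR-30e-3p and the adenosine tails of miR-30c-5p between 11.6 and 21.1% over both intervals.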

How the data were processed

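Per the methods of the study, small RNA of J1 mESCs was gel purified and sequenced from 1 pool of RNA of 3 independent experiments per treatment. The authors filtered and trimmed the reads to clean inserts of at least 18 nt and deposited, for each distinct tag, its raw count of clean reads, without alignment or normalization. The line without a tag in each file holds the total and was left out.

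Tags were matched with Python 3.11.15 to the hairpins of GENCODE M21 (GRCm38), and arms were separated by folding with ViennaRNA 2.7.2. As mature miRNA served the tag of an arm with most reads in both libraries together, miRNAs with identical mature tags were merged, and tags shared by several miRNAs were counted for each. The study used miRBase, which was not used here, and the labels name build mm9, while the counts hold no coordinates. Printed mature and hairpin sequences are those of RefSeq (4 of 6 hairpins matched). Counts were divided by the clean reads (RPM). Fold changes have Clopper-Pearson intervals, levels Poisson intervals and shares Wilson intervals (SciPy 1.17.1). The exact binomial test had Benjamini-Hochberg adjustment over all detected miRNAs. The quasi-likelihood test of edgeR needs replicates and was not run. Alternatives used edgeR 4.0.16 and DESeq2 1.42.0. The procedure was tested on simulated data.

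All members and both arms were named, together with miRNAs of the same seed, the 3 nearest in fold change, marker lists and 2 families for comparison. The members and lists were chosen with earlier results of these data known. Single-base variants, tails, mean lengths and ratios between members were examined after seeing the data.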

Additional observations from a re-analysis of the deposited data

Results flagged for a closer look

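Tags that match a miR-30 hairpin but overlap neither mature miRNA were not counted for any miRNA and entered only the sums of all tags and of the chromosome pairs, and 1 of them exceeded the limit of 3 reads and its level in the control. It is a tag of 18 nt from positions 41 to 58 of the Mir30e hairpin, between the mature arms. It had 12 reads (0.636 RPM) in the control library and 26 reads (1.24 RPM) in the PD library. For these 2 counts the interval of the fold change is 0.951 to 4.25 and includes 1. No group had the 4 samples needed to look for samples far from the others, and no contrast was measured in more than 1 setting.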

How the results depend on the processing

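The number of miR-30 miRNAs past 1.5-fold, 1 in the values reported, became 0 with each of the 4 other denominators (reads that match miRNA hairpins, clean reads of 20 to 24 nt, TMM factors of edgeR and size factors of DESeq2), with tags that start at the first base, with tags of 21 nt or more, with the PD library downsampled, with at least 10 RPM, with a 2-fold threshold, and with edgeR's exact test as a further criterion, where a BCV (coefficient of variation between libraries) of 0.1 or 0.2 was assumed. It became 2 with tags identical to the mature miRNA, which added miR-30c-2-3p (fold change 0.656), and without a filter, which added miR-30d-3p. Under those 4 denominators, in the same order, the fold change of the 5p total was 1.04, 1.10, 1.02 and 1.03, and that of the 3p total 0.933, 0.985, 0.914 and 0.916. With identical tags the 5p total was 0.971. Of 100 fold changes of single miRNAs under alternatives, 71 stayed within their interval or kept their call. Where an interval includes 1, a value within it can still change direction. Of the 10 detected members, 6, 3, 6 and 6 were below the control level under those 4 denominators, and 8 with identical tags. miR-30c-1-3p lost its call in 7 alternatives (0.669 to 0.790). The denominator moves all miRNAs together, by 0.17 to 0.28 on the log2 scale, and the cause of the other moves was not tested. The 5p share by tags of 1 hairpin could not be given for Mir30c-1 and Mir30c-2, and the RefSeq alternative covers 4 hairpins. No library could be left out, and no paired analysis was possible because each treatment had 1 library. Depth limits the miRNAs under about 10 RPM. Of these, miR-30b-3p and miR-30b-5p had intervals that include 1. That of miR-30c-1-3p (0.494 to 0.860) lies below 1 but has values on both sides of the 1.5-fold threshold.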
